A study of Homo sapiens with 6 samples.

Results

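The genes described here encode amino acid transporters and their partner chains of the solute carrier (SLC) families SLC1, SLC3, SLC7, SLC36, SLC38 and SLC43. They were chosen by name, as every symbol of the RNA table that starts with SLC1A, SLC3A, SLC7A, SLC36A, SLC38A or SLC43A followed by a number. This gave 41 of the 19223 symbols in the table. Where a symbol had several transcripts, the one with the largest mean of the 6 values was used. Of the 41, 27 had a value of 10 or more in 3 or more libraries and were tested. The rule also takes in SLC7A6OS, which is named for lying on the opposite strand of SLC7A6 and encodes no transporter, and it was counted as the rule has it.

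The libraries came from LoVo cells, an established line of human colorectal adenocarcinoma, and RNA was compared between cells without drug (Control, 3 libraries) and cells given 2.5 μM DCC-2036 (rebastinib), an inhibitor of ABL and other kinases, for 48 h by the labels (DCC-2036, 3 libraries). The study's own text gives a shorter time for these data, so the time behind each value is not certain. The labels name DMEM as the medium, whereas the study's methods name a different medium for the line, and the part of the medium in the values of these transporters was not tested. All libraries are of 1 line, and nothing states that the replicates were separate cultures, so p-values measure the spread between these samples, which may be technical.

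Each value is a signal per transcript that the authors had adjusted to a common depth, so it is neither a count nor a level per length. The values of a library summed to 38997229, 39956227 and 40587145 in Control and to 43279603, 45957597 and 48023306 in DCC-2036, and the number of reads behind them is unknown. Over the tested genes the DCC-2036 libraries lay further apart than the Control libraries. The median absolute log2 difference was 0.12, 0.14 and 0.11 for the 3 pairs of Control libraries, against 0.20 for DCC-2036 replicates 1 and 2, 0.25 for replicates 2 and 3 and 0.39 for replicates 1 and 3. DCC-2036 replicate 3 held the lowest DCC-2036 value of 14 of the 27 tested transporter genes, replicate 1 that of 10 and replicate 2 that of 3, or 51.9%, 37.0% and 11.1% of them, beside 43.2%, 40.5% and 16.3% of all genes tested.

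Amino acids are charged or polar and cross membranes through carriers, which differ in the amino acids they take, in the ions that drive them and in the membrane they sit in. Light chains of the SLC7 family reach the cell surface only when bound to a heavy chain of the SLC3 family, whereas the cationic amino acid transporters of SLC7 work alone. Carriers of the SLC36 and SLC38 families also sit in the lysosome membrane, where amino acid levels are read by mTORC1, and many transporter genes are known targets of ATF4, the transcription factor of the integrated stress response.

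In DCC-2036 libraries the cystine and glutamate exchanger SLC7A11, the heavy chain SLC3A2 and the arginine and lysine carrier SLC7A1 were higher, and the lysosomal SLC38A9, the glutamate carrier SLC1A3 and SLC43A3 were lower. In all, 5 of the 27 tested genes passed an adjusted p-value under 0.01 (limma with Benjamini-Hochberg adjustment over all 12725 genes tested) as higher and 5 as lower. Of all genes tested, 19.2% were called higher and 22.7% lower, so the 18.5% of the transporter genes in each direction lay near the background. The values of Control and DCC-2036 did not overlap for 19 of the 27, or 70.4%, beside 71.1% of all genes tested. The median log2 fold change of the 27 was -0.09, beside -0.09 for all genes tested. The gene at that median is SLC7A6OS, and without it the median was -0.06. Fold changes are on the scale of log2(value + 1), which understates the change of low genes. With a log2 fold change of 1 or more in size required as well, 3 transporter genes were higher (SLC7A11, SLC7A1 and SLC3A2), beside 7.42% of all genes tested, and 3 lower (SLC38A9, SLC1A3 and SLC43A3), beside 15.2%. At an adjusted p-value under 0.05, 8 were higher, beside 28.5% of all genes tested, and 7 lower, beside 33.7%. With the 6 libraries brought to equal totals, the median of all genes moved by -0.20 and the split became 3 higher and 6 lower, beside 13.1% and 27.0% of all genes tested, and with scaling to the upper quartile the median moved by 0.11 and the split was 6 and 5, beside 23.2% and 19.4%. All 10 called genes kept their sign under each of the 3 other scalings. These move all genes nearly alike and by less than the smallest called change (0.68, SLC7A8), so no sign could turn. Without Control replicate 1, 2 or 3 the count called higher was 3, 4 and 3, beside 8.41%, 7.97% and 7.89% of all genes tested, and the count called lower was 3, 3 and 3, beside 12.7%, 12.1% and 12.1%. Without DCC-2036 replicate 1, 2 or 3 the count called higher was 6, 4 and 8, beside 21.3%, 7.39% and 19.8% of all genes tested. The count called lower was then 7, 4 and 5, beside 28%, 13.6% and 25.9%.

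**Figure D1:**
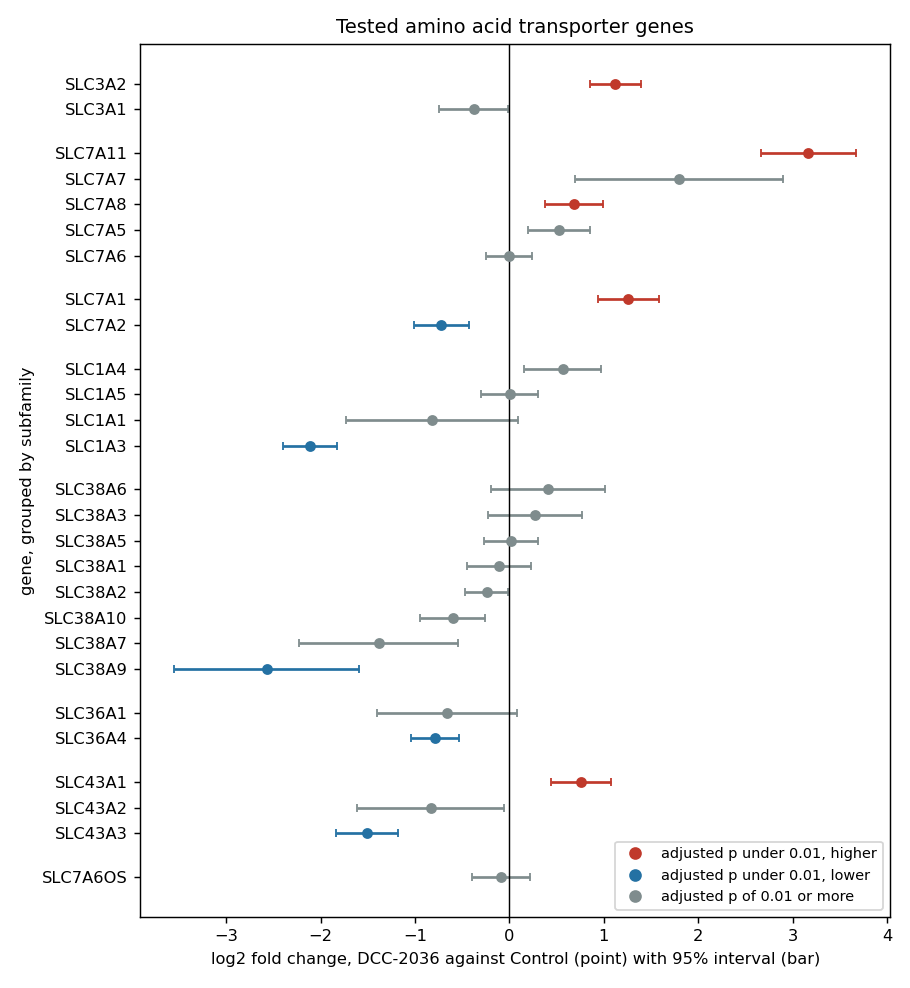
Log2 fold change of DCC-2036 against Control (x axis) for the 27 tested genes, grouped by subfamily (y axis), with 95% intervals from limma as bars and colours for calls at an adjusted p-value under 0.01. SLC7A11 stands furthest to the right at 3.17 and SLC38A9 furthest to the left at -2.57.

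The gene SLC3A2 (kept transcript NM_001013251.2) spans chr11:62856102-62888875 on the plus strand in GENCODE 29 (GRCh38). It encodes the heavy chain CD98, which carries SLC7A5, SLC7A6, SLC7A7, SLC7A8, SLC7A10 and SLC7A11 to the cell surface. Its values were 4599, 5045 and 5021 in Control replicates 1, 2 and 3 and 9597, 10788 and 11574 in DCC-2036 replicates 1, 2 and 3. Every DCC-2036 library stood well above every Control library. The mean was 4888 ± 251 (SD) in Control and 10653 ± 996 in DCC-2036, a ratio of 2.18, and the log2 fold change was 1.12 (SE 0.11, limma adjusted p = 0.000591). SLC3A1, the heavy chain that serves SLC7A9 in kidney and small intestine, was low, at 78.1 to 95.04 in Control and 55.1 to 73.7 in DCC-2036. The groups of SLC3A1 did not overlap, but its adjusted p of 0.069 (limma) did not pass.

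Among the light chains, SLC7A11 gave the largest rise of the 27 genes. It lies at chr4:138164097-138242349 on the minus strand (NM_014331.3) and encodes xCT, which brings cystine in and lets glutamate out. Its values were 682, 777 and 573 in Control replicates 1, 2 and 3 and 4682, 6144 and 7660.1 in DCC-2036 replicates 1, 2 and 3. The lowest DCC-2036 library was far above the highest Control library, and the DCC-2036 libraries also differed among themselves by more than the Control libraries did. The means were 677 ± 102 (SD) and 6162 ± 1489, a ratio of 9.10, and the log2 fold change was 3.17 (SE 0.21, 95% interval 2.66 to 3.67, limma adjusted p = 0.00022). By log2 fold change it stood at place 37 from the top among the 12725 genes tested.

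SLC7A5 (NM_003486.6, chr16:87830023-87869488, minus strand) encodes LAT1, an exchanger of leucine and other large neutral amino acids. It was measured at 14815, 14577 and 15174 in Control replicates 1, 2 and 3 and at 23837, 23134 and 17875 in DCC-2036 replicates 1, 2 and 3. All DCC-2036 values were above the Control values, with replicate 3 much closer to them than replicates 1 and 2. The log2 fold change of 0.53 (SE 0.14, 95% interval 0.20 to 0.86) had a limma adjusted p of 0.0152 and was not called. Without DCC-2036 replicate 3 it was 0.66 with an adjusted p of 0.0015, and the call was also made with scaling by the median of ratios (0.00643), with scaling by the upper quartile (0.00575) and with a mean-variance trend (0.00387), over a range of 0.0015 to 0.116 in all alternatives.

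SLC7A8 (NM_012244.3, chr14:23125295-23183674, minus strand) encodes LAT2, which exchanges a wider range of neutral amino acids. Control replicates 1, 2 and 3 had values of 87.4, 88.7 and 85.6, and DCC-2036 replicates 1, 2 and 3 had 144, 121 and 159. The Control libraries were almost level, and each DCC-2036 library was above them. The log2 fold change was 0.68 (SE 0.13, limma adjusted p = 0.00421). The call was lost without Control replicate 1, 2 or 3 (adjusted p = 0.0183, 0.0187 and 0.0201), with equal totals (0.0149) and with no filter on low values (0.0104). It was also lost with a replicate block, and the adjusted p ranged from 0.00281 to 0.0201.

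The other light chains gave no call. SLC7A6, which exchanges cationic for neutral amino acids, lay between 1473 and 1673 in Control and between 1514 and 1633 in DCC-2036, and its log2 fold change was -0.01 with a 95% interval of -0.25 to 0.23 (limma adjusted p = 0.945). SLC7A7, the close relative that serves export from gut and kidney cells, was at 4.65, 10.8 and 3.59 in Control against 36.1, 22.8 and 13.5 in DCC-2036. SLC7A7 passed the filter through the 3 DCC-2036 libraries and Control replicate 2, so it was chosen in part for being high in DCC-2036. The log2 fold change of 1.79 (SE 0.46) had a limma adjusted p of 0.0145, and of 0.00945 without Control replicate 2 and 0.00625 without DCC-2036 replicate 3 (range 0.00625 to 0.0504). Without Control replicate 2 it passed the filter through the DCC-2036 libraries alone and so had to be higher there. Just outside the filter lay SLC7A9, the partner of SLC3A1, at 9.49, 4.29 and 4.54 in Control against 0.01, 2.13 and 1.18 in DCC-2036.

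**Figure D2:**
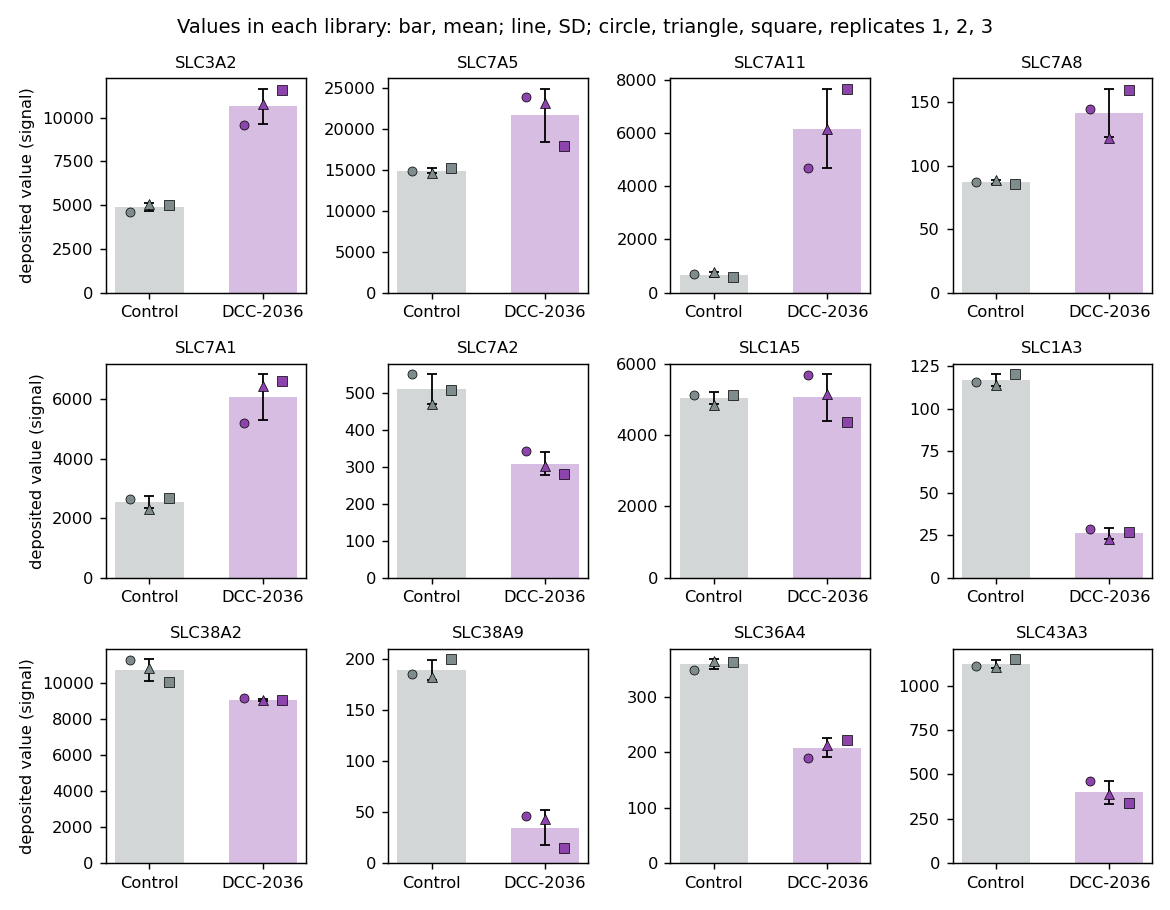
Deposited value (y axis, signal) of 12 transporter genes in Control and DCC-2036 (x axis), with each library as a point, the mean as a bar and the SD as a line. The 3 DCC-2036 points of SLC7A11, SLC3A2 and SLC7A1 lie above the Control points, those of SLC38A9, SLC1A3, SLC36A4 and SLC43A3 lie below them, and those of SLC1A5 overlap with them.

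Levels of different genes were compared as the value per kb, from the length of the GENCODE 29 transcript that matches the kept one. The 8 light chains of SLC7 summed to 3629, 3568 and 3662 per kb in Control replicates 1, 2 and 3 and to 6030.1, 6019 and 5038 per kb in DCC-2036 replicates 1, 2 and 3. SLC7A5 made up 90.0%, 90.0% and 91.3% of this sum in Control and 87.1%, 84.7% and 78.2% in DCC-2036. SLC7A11 made up 1.95%, 2.26% and 1.62% in Control against 8.05%, 10.6% and 15.8% in DCC-2036. The share of SLC7A11 was thus higher in each DCC-2036 library than in any Control library, by 9.52 percentage points between the means (exact permutation p = 0.1, two-sided, the smallest that 3 against 3 libraries allow). SLC3A2 per kb relative to this sum was 0.665, 0.743 and 0.72 in Control against 0.836, 0.941 and 1.21 in DCC-2036, also without overlap (exact permutation p = 0.1). The highest of these ratios, in DCC-2036 replicate 3, stands in the library with the lowest DCC-2036 value of SLC7A5.

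Per kb of the kept transcript, 5 genes held most of the RNA of the whole group. In Control these were SLC7A5 at 3274, SLC3A2 at 2567, SLC38A2 at 2199, SLC1A5 at 1748 and SLC38A1 at 1428 per kb, and together they made up 80.5% ± 0.458 (SD, n = 3) of the summed level of the 40 transporter genes and chains. In DCC-2036 SLC3A2 was at 5595 per kb and SLC7A5 at 4764 per kb, and the same 5 genes made up 83.4% ± 1.08 (SD, n = 3). SLC7A11 moved from 70.2 to 639 per kb and SLC7A1 from 345 to 828 per kb, so that in DCC-2036 both were above SLC38A5 at 416 per kb and SLC38A10 at 252 per kb. The order of the 5 genes depends on the transcript whose length is used. SLC38A2 has a kept transcript of 4888 bases and another of 1221 bases with a similar value, which would put it at 8036 per kb in Control and 6951 per kb in DCC-2036, above SLC7A5 and SLC3A2 in both groups. The transcripts of SLC38A1 lay between 372 and 1459 per kb in Control, and the shares of the sum hold for the kept transcripts only.

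**Figure D3:**
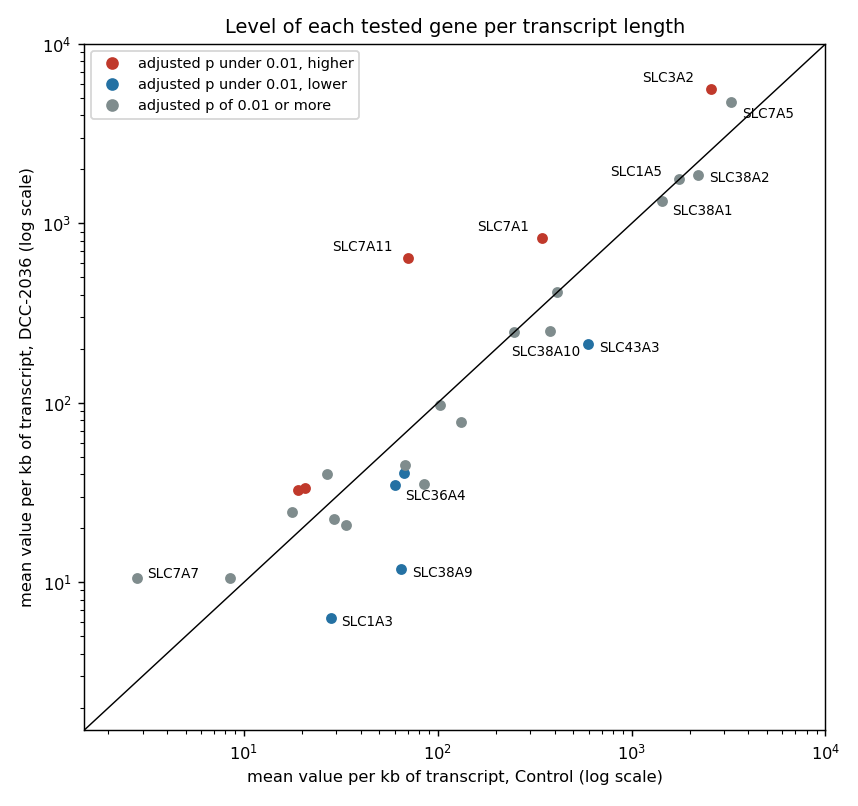
Mean value per kb of the kept transcript in Control (x axis, log scale) and DCC-2036 (y axis, log scale) for the 27 tested genes, with the line of equal levels. SLC3A2 and SLC7A5 lie at the top right, and SLC7A11 lies far above the line, at 70.2 per kb in Control and 639 per kb in DCC-2036.

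The cationic amino acid transporters of SLC7 gave 1 call in each direction among the 2 that were tested. SLC7A1 (NM_003045.4, chr13:29509410-29595688, minus strand) encodes CAT-1, the main uptake route of arginine and lysine in most dividing cells. It was measured at 2637, 2304 and 2672 in Control replicates 1, 2 and 3 and at 5198, 6436 and 6615 in DCC-2036 replicates 1, 2 and 3. All 3 DCC-2036 libraries were above the Control libraries, with replicate 1 the lowest of them. The ratio of means was 2.40 and the log2 fold change 1.26 (SE 0.13, limma adjusted p = 0.000693).

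SLC7A2 (NM_001008539.3) encodes CAT-2, a second carrier of arginine. Its values of 552, 470 and 507 in Control replicates 1, 2 and 3 stood against 343, 303 and 281 in DCC-2036 replicates 1, 2 and 3. The groups did not overlap, and the DCC-2036 mean was 60.6% of the Control mean. The log2 fold change was -0.72 (SE 0.12, limma adjusted p = 0.00306). The call was lost without Control replicate 1, 2 or 3 (adjusted p = 0.0151, 0.0111 and 0.0151) and without DCC-2036 replicate 2 (0.0155), over a range of 0.00139 to 0.0155.

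Promoters were searched for TGATGNAA, the core of the composite element to which ATF4 binds with a C/EBP partner, on both strands of the RefSeq windows of 250 bases before to 50 bases after a start (GRCh38.p14). Windows of 32 of the 41 symbols were in the table, 54 windows in all, and 22 of the 27 tested genes were among them, without SLC3A1, SLC7A2, SLC7A11, SLC38A3 and SLC43A3. The letters were found in 6 of the 54 windows, those of SLC1A3, SLC1A4, SLC1A5, SLC3A2, SLC7A1 and SLC38A1, beside 3.62% of all 35116 windows. The start of the SLC1A4 window with the letters is that of its kept transcript to within 2 bases. Shown are the windows of SLC1A4, of SLC7A1 and SLC3A2, which rose, and of SLC1A3, which fell. They are chr13:29595639-29595938 on the minus strand for SLC7A1, chr11:62881449-62881748 on the plus strand for SLC3A2, chr2:64989149-64989448 on the plus strand for SLC1A4 and chr5:36596338-36596637 on the plus strand for SLC1A3. Capitals mark the match, which in SLC3A2 and SLC1A4 is on the opposite strand and so reads as its reverse complement.
SLC7A1: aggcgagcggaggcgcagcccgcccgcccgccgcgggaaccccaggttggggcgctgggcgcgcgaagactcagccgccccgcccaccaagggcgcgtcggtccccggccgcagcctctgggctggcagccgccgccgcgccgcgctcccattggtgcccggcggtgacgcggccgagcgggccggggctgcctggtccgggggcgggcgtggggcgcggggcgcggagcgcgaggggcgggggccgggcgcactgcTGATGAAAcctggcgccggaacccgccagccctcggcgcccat
SLC3A2: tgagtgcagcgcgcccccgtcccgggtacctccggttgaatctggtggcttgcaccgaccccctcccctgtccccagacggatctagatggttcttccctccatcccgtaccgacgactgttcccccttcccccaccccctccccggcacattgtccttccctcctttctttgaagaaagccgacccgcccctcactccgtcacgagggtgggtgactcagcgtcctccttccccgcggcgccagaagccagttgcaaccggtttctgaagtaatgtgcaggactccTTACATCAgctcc
SLC1A4: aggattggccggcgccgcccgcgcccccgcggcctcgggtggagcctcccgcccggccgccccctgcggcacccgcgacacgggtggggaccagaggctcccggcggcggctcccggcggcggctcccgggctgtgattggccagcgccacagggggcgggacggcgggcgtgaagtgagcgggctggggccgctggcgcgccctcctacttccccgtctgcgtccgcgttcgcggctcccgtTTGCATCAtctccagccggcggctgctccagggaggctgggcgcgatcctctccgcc
SLC1A3: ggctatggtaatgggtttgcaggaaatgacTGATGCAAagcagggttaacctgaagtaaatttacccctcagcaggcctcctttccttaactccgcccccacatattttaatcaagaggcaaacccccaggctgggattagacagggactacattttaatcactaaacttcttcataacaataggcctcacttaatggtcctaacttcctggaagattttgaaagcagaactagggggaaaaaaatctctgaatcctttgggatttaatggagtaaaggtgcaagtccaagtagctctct
The match begins at base 258 of the SLC7A1 window and at base 288 of the SLC3A2 window, both just after the start, at base 244 in SLC1A4, where it reaches the start, and at base 31 in SLC1A3. The start of the SLC7A1 window is that of the kept transcript, whereas the SLC3A2 window belongs to a start 827 bases from it and the SLC1A3 window to one 9767 bases from it. The SLC3A2 window whose start lies 24 bases from that of the kept transcript did not hold the letters. Neither did the SLC1A3 windows whose starts lie 251 and 599 bases from that of its kept transcript. The matches of SLC1A5 and SLC38A1 were in windows whose starts lie 3780 and 2481 bases from those of their kept transcripts. A match describes these letters only, and binding at them was not measured.

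The SLC1 family takes up glutamate or exchanges small neutral amino acids. SLC1A5 (NM_005628.2, chr19:46774883-46788594, minus strand) encodes ASCT2, an exchanger of glutamine and other neutral amino acids. Its values were 5140.4, 4850.1 and 5119 in Control replicates 1, 2 and 3 and 5676, 5152 and 4369 in DCC-2036 replicates 1, 2 and 3. Replicates 1 and 2 of DCC-2036 were above the Control libraries and replicate 3 below them, so the groups overlap. The log2 fold change was 0.00 with a 95% interval of -0.30 to 0.30 (limma adjusted p = 0.997), and with equal totals it was -0.20.

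SLC1A3, a glutamate carrier best known from glia, fell the most in this family. It lay between 114 and 121 in Control and between 22.8 and 29.01 in DCC-2036, where its mean was 22.5% of that in Control. The log2 fold change was -2.12 (SE 0.12, limma adjusted p = 0.000193). SLC1A4, an exchanger of alanine, serine and cysteine, lay between 110 and 138 in Control and between 146 and 207 in DCC-2036. Its groups did not overlap and its log2 fold change was 0.56 (limma adjusted p = 0.026). Without DCC-2036 replicate 3 that p was 0.00386, in a range of 0.00386 to 0.143. The glutamate carrier SLC1A1 ranged from 118 to 135 in Control and from 38.7 to 119 in DCC-2036 and was not called (log2 fold change -0.82, limma adjusted p = 0.0998).

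Of the sodium-coupled family SLC38, 8 genes were tested and 1 was called, as lower. SLC38A2 (NM_018976.4, chr12:46358189-46372867, minus strand) encodes SNAT2, which takes up small neutral amino acids, and its level per kb was the highest of the family with either of its transcripts. Control replicates 1, 2 and 3 were at 11292, 10855 and 10095 and DCC-2036 replicates 1, 2 and 3 at 9153, 9042 and 9071. The DCC-2036 libraries were nearly level and all below the Control libraries, by a log2 fold change of -0.24 with a 95% interval of -0.47 to -0.01 (limma adjusted p = 0.0653). SLC38A1, or SNAT1, lay between 4836 and 5009 in Control and between 3742 and 5084 in DCC-2036, with replicate 3 alone below the Control range, and SLC38A5 lay between 719 and 906 and between 813 and 841.

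SLC38A9 (kept transcript NM_173514.3, gene at chr5:55625845-55773194, minus strand) encodes a lysosomal carrier that senses arginine and acts on mTORC1. It was measured at 185, 182 and 199.8 in Control replicates 1, 2 and 3 and at 45.5, 43.1 and 14.9 in DCC-2036 replicates 1, 2 and 3. All DCC-2036 libraries were far below the Control libraries, and replicate 3 was the lowest. The DCC-2036 mean was 18.3% of the Control mean, and the log2 fold change of -2.57 (SE 0.41, 95% interval -3.55 to -1.59) was the lowest of the 27 genes (limma adjusted p = 0.00247). The call was lost without Control replicate 1, 2 or 3 (adjusted p = 0.0115, 0.0105 and 0.0122), over a range of 0.000191 to 0.0122.

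SLC38A7, which moves glutamine and asparagine out of the lysosome, lay between 319 and 407 in Control and between 92.7 and 247 in DCC-2036. Its groups did not overlap, and the log2 fold change of -1.39 (SE 0.35) had a limma adjusted p of 0.0142. That p was 0.000621 without DCC-2036 replicate 1 and 0.00495 with a mean-variance trend, in a range of 0.000621 to 0.0482. SLC38A10, whose transport is less well known, lay between 1462 and 1747 in Control and between 916 and 1208 in DCC-2036, with a log2 fold change of -0.60 (SE 0.14, limma adjusted p = 0.0112). It passed without DCC-2036 replicate 1 (0.00748), with equal totals (0.00761), with a value of 10 or more in all 6 libraries (0.00857) and with a trend (0.00345), in a range of 0.00345 to 0.0443. SLC38A3 and SLC38A6 were low, with highest values of 41.9 and 53.9. Their groups overlap, and SLC38A6 passed only without DCC-2036 replicate 1 (adjusted p = 0.00369, range 0.00369 to 0.491).

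The proton-coupled carriers of SLC36 were represented by 2 tested genes. SLC36A1, which exports small neutral amino acids from lysosomes, had values of 383, 426 and 361 in Control replicates 1, 2 and 3 and 337, 296 and 148 in DCC-2036 replicates 1, 2 and 3. Replicates 1 and 2 of DCC-2036 were a little below the Control libraries and replicate 3 far below, and the log2 fold change was -0.66 (SE 0.31, limma adjusted p = 0.102). SLC36A4 (NM_152313.3, chr11:93144171-93197964, minus strand), which binds proline and tryptophan with high affinity, was measured at 349, 366 and 364 in Control replicates 1, 2 and 3 and at 189.8, 213 and 223 in DCC-2036 replicates 1, 2 and 3. Both groups were tight and apart. The DCC-2036 mean was 58.0% of the Control mean, with a log2 fold change of -0.79 (SE 0.10, limma adjusted p = 0.00136).

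All 3 genes of SLC43 were tested. SLC43A3 (NM_001278206.1, chr11:57406954-57427580, minus strand) is grouped with the amino acid carriers by its name and is known to carry purine nucleobases. Its values were 1109, 1107 and 1150.5 in Control replicates 1, 2 and 3 and 464, 391 and 337 in DCC-2036 replicates 1, 2 and 3. The Control libraries were almost level and every DCC-2036 library was below them, at 35.4% of the Control mean, with a log2 fold change of -1.51 (SE 0.14, limma adjusted p = 0.000445). SLC43A1, or LAT3, a carrier of leucine and other large neutral amino acids, lay between 42.8 and 53.7 in Control and between 76.5 and 89.8 in DCC-2036, with a log2 fold change of 0.76 (SE 0.13, limma adjusted p = 0.00334). This call was lost without Control replicate 1, 2 or 3 (adjusted p = 0.0109, 0.0144 and 0.0127), without DCC-2036 replicate 2 (0.0169) and with equal totals (0.0166). It was also lost with a replicate block, and the adjusted p ranged from 0.0018 to 0.0169. SLC43A2, or LAT4, lay between 379.7 and 482 in Control and between 141 and 316 in DCC-2036 and was not called (log2 fold change -0.83, limma adjusted p = 0.0609).

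Of the 41 symbols, 14 did not pass the filter. SLC7A13, SLC36A3 and SLC38A11 were listed at 0 in all 6 libraries. Another 9, namely SLC1A2, SLC1A6, SLC1A7, SLC7A3, SLC7A4, SLC7A10, SLC7A14, SLC36A2 and SLC38A4, had a highest value under 4, and SLC38A8 reached 5.16 and SLC7A9 reached 9.49. No fold change is given for these.

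Transcripts of 1 gene share reads, so their values are not independent. Of the 27 genes, 19 had more than 1 transcript tested, and in 16 of these all tested transcripts had log2 fold changes of the same sign. SLC38A1 was one exception. Its transcript NM_001278390.1 was at 965, 948 and 989 in Control replicates 1, 2 and 3 and at 1873, 1804 and 1502 in DCC-2036 replicates 1, 2 and 3, with no overlap and a log2 fold change of 0.83 (SE 0.12), whereas the other 5 transcripts of the gene lay between -0.21 and -0.11. With every transcript as a row of its own, its limma adjusted p was 0.00161. SLC36A1 had 1 transcript of 3 with a positive sign, at 0.06, and SLC1A5 changed sign between -0.03 and 0.00. In SLC1A3, 4 transcripts lay between -2.12 and -2.04 and the fifth, NM_001166696.2, which was at most 12.7 in any library, was at -0.35. All 4 transcripts of SLC3A2 rose, by 1.02 to 1.12, and all 4 of SLC38A9 fell, to between -3.06 and -2.57.

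Some genes share exon sequence with a neighbour, and whether strand was used in counting is not given in the sources used here. SLC7A6 and SLC7A6OS share 3371 exon bases on opposite strands in GENCODE 29, so their reads may not be told apart. SLC7A6OS lay between 397 and 464 in Control and between 355 and 441 in DCC-2036. SLC3A1 shares 1923 exon bases with PREPL on the opposite strand, whose mean value was 1030 in Control beside 87.6 for SLC3A1. The log2 fold change of PREPL was -0.37 (limma adjusted p = 0.024) and that of SLC3A1 was -0.38. The part of PREPL reads in the values of SLC3A1 was not tested. SLC3A1 also shares 1761 exon bases with a protein-coding gene model on its own strand, which strand could not separate. SLC7A11 shares 865 bases with the antisense gene SLC7A11-AS1, SLC1A5, SLC7A5 and SLC38A10 share 780, 271 and 610 bases with antisense genes, SLC43A3 shares 1349 bases with a protein-coding gene model on its own strand and SLC38A6 shares 245 bases with TRMT5 on the opposite strand. The values of these genes are uncertain to that extent.

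Related genes were read in 8 lists with 92 genes, of which 80 were tested in the same fit, 26 (32.5%) being called higher and 10 (12.5%) lower. Each list is to be read beside the 19.2% of all genes tested that were called higher, the 22.7% called lower and their median log2 fold change of -0.09. The lists were chosen with earlier results of these data known, so a share above that of all genes may come in part from the choice. The list of glutamine, glutamate and asparagine metabolism had 8 of 12 (66.7%) higher and 1 (8.33%) lower, with a median log2 fold change of 0.80, and those called ran from GPT at 2.72 (SE 0.26) and ASNS, the asparagine synthetase, at 2.43 (SE 0.15) to GOT2 at 0.60 and GLUL, the glutamine synthetase, at -0.54. Of the eIF2 kinases and integrated stress response factors, 5 of 13 (38.5%) were higher and 1 (7.69%) lower (median -0.13), with ATF3 at 2.74, NUPR1 at 2.67, ATF4 at 0.78 and PPP1R15A at -1.36. NUPR1 was at 6.66, 3.48 and 1.76 in Control replicates 1, 2 and 3 and at 16.7, 32.4 and 40.5 in DCC-2036 replicates 1, 2 and 3. It passed the filter through the DCC-2036 libraries alone and so had to be higher there, and with a value of 10 or more in all 6 libraries 4 of the 12 genes left in the list were called higher. It was called in 8 of the 11 alternatives in which it was tested, over a range of limma adjusted p of 0.00189 to 0.0173, and lost the call without Control replicate 2 or 3 (0.0129 and 0.0106) and in 1 other fit. Without any 1 DCC-2036 library it was no longer tested. ATF4 was measured at 5674, 6016 and 5841 in Control replicates 1, 2 and 3 and at 8606, 10189 and 11608 in DCC-2036 replicates 1, 2 and 3, without overlap. The call of ATF4 was lost without Control replicate 1, 2 or 3 (limma adjusted p = 0.0156, 0.0143 and 0.0153) and without DCC-2036 replicate 2 (0.0153), over a range of 0.000453 to 0.0156. The list of glutathione synthesis and use had 3 of 8 (37.5%) called, all as higher (median 0.53), namely CHAC1 at 1.79, TXNRD1 at 0.73 and GCLC at 0.69. Among the genes of amino acid sensing upstream of mTORC1, 6 of 21 (28.6%) were higher and 2 (9.52%) lower (median 0.11), with SESN2 at 1.69, LAMTOR3 at 1.68, RRAGA at -0.81 and LAMTOR1 at -0.78 among those called. NPRL3 lay lower still, at -1.22, and was not called (limma adjusted p = 0.0152), except without DCC-2036 replicate 1 or 3 among the fits that leave out 1 library (0.00417 and 0.00249, in a range of 0.00249 to 0.0479 over all alternatives).

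Among the other lysosomal carriers, 1 of 4 tested was higher, the peptide and histidine carrier SLC15A4 at 0.84, and 2 were lower, the cationic amino acid carrier SLC66A1 at -2.34 and the cystine carrier CTNS at -1.46 (median -0.95). The mitochondrial amino acid carriers had 1 of 11 higher, SLC25A38 at 0.63, and 2 lower, SFXN2 at -1.73 and SLC25A13 at -0.94 (median 0.17). Of the ubiquitin ligases and chaperones of transporters, 2 of 6 were higher, ARL6IP5 at 1.23 and BSG at 0.60, and 2 lower, RNF5 at -2.61 and NEDD4 at -1.52 (median 0.38). None of the 5 tested genes of the other plasma membrane amino acid and peptide transporters was called in either direction by limma (0 and 0, with 2 at an unadjusted p under 0.05), with a median of -0.85. The taurine carrier SLC6A6 had the highest value of this list, at a mean of 1169 in Control and 695 in DCC-2036. SLC6A17, a neutral amino acid carrier of neurons, was at 492, 435 and 498 in Control replicates 1, 2 and 3 and at 323, 167 and 115 in DCC-2036 replicates 1, 2 and 3, without overlap (log2 fold change -1.36, limma adjusted p = 0.0159, in a range of 0.000663 to 0.05). Without DCC-2036 replicate 1, 3 of the 5 were called lower, SLC6A6, SLC6A17 and the peptide carrier SLC15A2, beside 28.0% of all genes tested. SLC15A2 then passed the filter through the Control libraries alone and so had to be lower in DCC-2036.

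The counts in these lists changed with the library left out, as did those of all genes tested. Without Control replicate 1, 2 or 3 or DCC-2036 replicate 2, the count called higher over the 8 lists was 11, 10, 10 and 11, beside 8.41%, 7.97%, 7.89% and 7.39% of all genes tested called higher and 12.7%, 12.1%, 12.1% and 13.6% called lower. In these 4 fits the list of glutamine, glutamate and asparagine metabolism had 5 genes higher each time and GLUL lost its call. The stress response factors had 3, 2, 2 and 3 higher, and the genes of amino acid sensing had 2 higher each time and 2, 1, 1 and 1 lower. No gene of glutathione synthesis and use was called by limma in any of the 4 (0, with 4, 5, 5 and 5 higher at an unadjusted p under 0.05). The mitochondrial carriers had 0 higher (with 1, 1, 3 and 1 at an unadjusted p under 0.05) and 1 lower, the lysosomal carriers 0 higher (with 1 each time) and the ligases and chaperones 1 higher. Without DCC-2036 replicate 1, 2 of the 11 mitochondrial carriers (18.2%) were called higher, beside 21.3% of all genes tested. Of the called genes named from the lists, GPT, ASNS, ATF3, PPP1R15A, SESN2, LAMTOR3, RRAGA, SLC66A1, CTNS, SFXN2, ARL6IP5, RNF5 and NEDD4 were called whichever library was left out. GOT2, GLUL, ATF4, CHAC1, TXNRD1, GCLC, SLC15A4, SLC25A38, SLC25A13 and BSG lost the call in each of the 4 fits without Control replicate 1, 2 or 3 or DCC-2036 replicate 2, LAMTOR1 lost it in 3 of them, and TXNRD1 lost it without DCC-2036 replicate 3 as well.

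**Figure D4:**
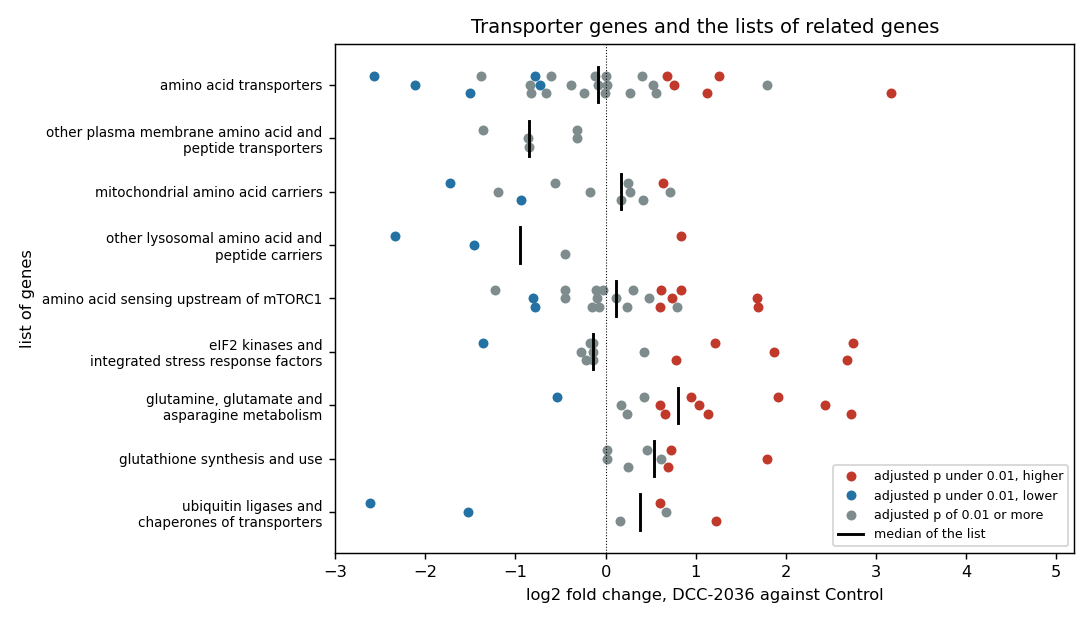
Log2 fold change of DCC-2036 against Control (x axis) for the tested transporter genes and the tested genes of the 8 related lists (y axis), with list medians as vertical bars. The list of glutamine, glutamate and asparagine metabolism has its median at 0.80, and the transporter genes have theirs at -0.09.

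The cells were checked against markers of epithelium and gut. EPCAM, CDH1, KRT8, KRT18, KRT19 and CDX2 were present in every library, with KRT8 at the highest value, whereas CDX1 was listed at 0 in all 6 libraries, CEACAM5 was at most 0.90 and VIL1 at most 4.12. Of the 7 tested, CDH1 (1.10) and KRT8 (0.84) were higher in DCC-2036 and KRT20 (-1.15) lower. The 6 fibroblast markers summed to 439.9, 412 and 369.6 in Control against 516, 452 and 553 in DCC-2036, most of it COL1A1. COL3A1 was at 27.6, 6.70 and 8.11 in Control replicates 1, 2 and 3 and at 51.5, 11.1 and 8.93 in DCC-2036 replicates 1, 2 and 3, and PDGFRB was at 3.64 to 5.30 in Control and higher without overlap in DCC-2036, at 7.30 to 16.1. COL1A2, DCN and LUM were at most 12.4, 13.4 and 7.17. The 6 leukocyte markers, with LYZ the highest, summed to 4.6, 15.2 and 11 in Control and to 17.8, 18.6 and 36.6 in DCC-2036, with PTPRC listed at 0 in all 6 libraries. The 5 of endothelium and red cells, with VWF the highest, summed to 14.2, 5.9 and 17.7 in Control and to 43.3, 16.5 and 22.6 in DCC-2036. Besides PDGFRB, the markers COL1A1, VWF, CD3E and TYROBP were higher in DCC-2036 without overlap, and the groups of the other markers in these lists overlap. None of the 3 tested genes of these lists was called by limma (0, with 1, VWF, at an unadjusted p under 0.05), and their part in the values of the transporter genes was not tested.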

How the data were processed

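The 6 RNA libraries of LoVo cells, 3 Control and 3 DCC-2036, were grouped by their titles. The labels give 48 h of treatment, and a figure legend of the study gives 24 h for the same dose. The labels name a Nextera XT kit; the aligner, the genome build and the counting are not given in the sources used here.

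The deposited values are a signal per transcript that the authors had adjusted to a common depth. They are not whole numbers and do not give back reads, so no depth can be stated for a library. For each transcript the table also holds the log2 fold change, the p-value and the q-value of the authors, none of which was used. There were 0 further columns with values of single samples.

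A count-based test was the plan for whole-number values. Because the values are adjusted, limma 3.58.1 in R 4.3.3 was fitted to log2(value + 1) without covariates, two-sided, for the 12725 symbols with a value of 10 or more in 3 or more libraries, with 1 transcript per symbol. P-values were adjusted over all of them by Benjamini-Hochberg and called under 0.01. The fit was tested on simulated data. Tables and exact permutation tests used Python 3.11.15 (pandas 2.3.3, numpy 2.4.6 and scipy 1.17.1), and matplotlib 3.10.9 drew the plots. The RefSeq names of all 41 kept transcripts matched GENCODE 29, which gave transcript lengths and gene positions. A position printed beside a transcript name is that of the gene, and the kept transcript may begin inside it. Promoter windows are those of RefSeq.

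Values in every library are given for genes called with a mean value of 100 or more, for the gene with the highest mean of each subfamily and for SLC3A2, SLC7A5, SLC7A11, SLC1A5, SLC38A2 and SLC7A1. From each related list at most 4 genes are named, the 2 highest and the 2 lowest log2 fold changes among those called. Values per library of SLC7A7, SLC7A9, ATF4, NUPR1, SLC6A17, COL3A1 and the SLC38A1 transcript, and other genes outside these rules, were picked once the values had been seen. The members and lists were chosen with earlier results of these data known. Alternatives were other scalings (equal totals, median of ratios, upper quartile), other filters, a pseudocount of 0.1, limma with a trend, a replicate block, leaving out each library, other thresholds, all transcripts as rows and, added after seeing the data, leaving out SLC7A6OS.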

Additional observations from a re-analysis of the deposited data

How the results depend on the processing

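Of the 10 called genes, 6 (SLC1A3, SLC3A2, SLC7A1, SLC7A11, SLC36A4 and SLC43A3) kept their direction and call in every alternative fit. The other 4 (SLC7A2, SLC7A8, SLC38A9 and SLC43A1) kept their direction and lost the call in 1 or more, and of the 17 genes not called 6 passed in 1 or more. The cause was not tested. Without DCC-2036 replicate 1 or 3, more of all genes were called higher (2675 and 2487, against 2442) and lower (3507 and 3253, against 2887).

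Against 5 genes called higher and 5 lower, equal totals gave 3 higher, an adjusted p-value under 0.05 gave 8 higher and 7 lower (28.5% and 33.7% of all genes tested), and a log2 fold change of 1 or more in size gave 3 higher and 3 lower (7.42% and 15.2%). Without SLC7A6OS, 5 were higher and 5 lower and the median was -0.06. Leaving out 1 library gave 3 to 8 higher and 3 to 7 lower, beside 7.39% to 21.3% and 12.1% to 28% of all genes tested. The 8 related lists had 26 higher and 10 lower. Leaving out 1 library gave them 10 to 28 higher and 7 to 15 lower, beside the same 7.39% to 21.3% and 12.1% to 28% of all genes. In these lists an adjusted p-value under 0.05 gave 35 higher and 16 lower. A log2 fold change of 1 or more in size gave 13 higher and 6 lower. The shares of all genes at these thresholds are those given above. Without Control replicate 1, 2 or 3 or DCC-2036 replicate 2, fewer of all genes were called higher (1054, 1000, 992 and 928, against 2442). The median of the transporter genes, -0.09, became -0.29 with equal totals, -0.0076 with the median of ratios, 0.0222 with the upper quartile and 0.0078 with no filter on low values. These 4 shifts were larger than the SD of that median between libraries, pooled over both groups (0.0669). The shift with the median of ratios was smaller than that SD within DCC-2036 alone (0.0929). The median of all genes tested moved alike with these 3 scalings, from -0.09 to -0.29, -0.0077 and 0.0221, and was -0.0402 with no filter. Leaving out 1 library gave the transporter genes a median of -0.12 to -0.0435.

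With a replicate block 3 transporter genes were called higher and 5 lower, SLC7A8 and SLC43A1 losing the call, and 12 genes of the related lists were called higher, NUPR1 not among them (adjusted p = 0.0173), beside 9.45% of all genes tested called higher and 15% lower. Deviations of libraries with the same number correlated at 0.08, -0.04 and 0.00 across genes, and 2 of 6 libraries correlated best with their own number, so the numbers were not taken to pair the samples.

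Genes near 0 changed sign. SLC1A5 was at -0.20 with equal totals and at -0.0858 to 0.10 when 1 library was left out. SLC7A6 was at 0.073 with the median of ratios, at 0.10 with the upper quartile and at -0.0519 to 0.0396 without 1 library. SLC7A6OS was at 0.0222 with the upper quartile and at -0.15 to 0.0053 without 1 library. SLC38A5 was at -0.18 with equal totals and at -0.0797 to 0.0866 without 1 library, and SLC38A1 at -0.19 to 0.0272. The unknown depth limits what can be said of genes with low values.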
